A study of Mus musculus with 10 samples.

Results

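The genes of cholesterol synthesis and uptake were followed across 10 RNA-seq libraries from mouse V6.5 embryonic stem cells (ESCs) and from the neural precursor cells (NPCs) derived from them. The set is a list of gene names that was chosen with earlier results of these data known. It holds 28 of the 24520 genes of the deposited table. All 28 passed the filter that left 11956 genes to test. The members are the mevalonate enzymes Acat2, Hmgcs1, Mvk, Pmvk, Mvd, Idi1, Fdps and Ggps1, the squalene and lanosterol enzymes Fdft1, Sqle and Lss, and the later sterol enzymes Cyp51, Tm7sf2, Lbr, Msmo1, Nsdhl, Hsd17b7, Ebp, Sc5d and Dhcr7. They also include the control genes Insig1, Insig2, Srebf1, Srebf2 and Scap and the sterol carriers Stard4, Npc1 and Npc2.

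Every library came from the same cell line, and no group carried a genetic change. ESCs had been grown with leukemia inhibitory factor on irradiated mouse fibroblasts, and NPCs were made from them through 4 days as embryoid bodies followed by a monolayer in ITSF medium. ESCs received a control siRNA or an siRNA against Cbx3, and NPCs received a control siRNA, an siRNA against Cbx3 or an siRNA against Med26. In text that stands with every sample, the labels place the transfection on day 5 and the RNA harvest on day 8, and each of the 5 groups has 2 libraries called biological replicates. Cbx3 encodes HP1 gamma, a chromatin protein that reads histone methylation, and Med26 encodes a subunit of the Mediator complex.

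Cells build cholesterol from acetyl-CoA through mevalonate, farnesyl diphosphate, squalene and lanosterol, and they also take it up from lipoproteins through the lysosome. When sterols in the membrane of the endoplasmic reticulum are low, Scap carries the SREBP proteins, made from Srebf1 and Srebf2, to the Golgi, where they are cut and freed to switch on most genes of the pathway. Insig proteins hold Scap back when sterols are plentiful, and Insig1 is itself a target of SREBP. NF-Y and Sp1 are known partners of SREBP at promoters of the pathway, and NF-Y binds the letters CCAAT.

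The 250 bases before the annotated start are shown for 6 members with called changes in NPCs, so that the letters that the pathway's promoters share can be seen. These 6 were picked after their values were seen. The sequences and their positions are from RefSeq on GRCm38.p6, written 5′ to 3′ on the strand of the gene, and capitals mark CCAAT or its complement ATTGG. Insig1 lies at chr5:28071162-28071411 (plus strand), Lss at chr10:76531355-76531604 (plus), Msmo1 at chr8:64733579-64733828 (minus), Sc5d at chr9:42264301-42264550 (minus), Cyp51 at chr5:4104698-4104947 (minus) and Lbr at chr1:181842402-181842651 (minus).
Insig1: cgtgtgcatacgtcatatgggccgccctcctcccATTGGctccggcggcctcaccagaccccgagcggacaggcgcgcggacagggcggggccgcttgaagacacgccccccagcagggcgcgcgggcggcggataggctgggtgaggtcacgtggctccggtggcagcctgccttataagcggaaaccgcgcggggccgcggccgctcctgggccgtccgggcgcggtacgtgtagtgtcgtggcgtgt
Lss: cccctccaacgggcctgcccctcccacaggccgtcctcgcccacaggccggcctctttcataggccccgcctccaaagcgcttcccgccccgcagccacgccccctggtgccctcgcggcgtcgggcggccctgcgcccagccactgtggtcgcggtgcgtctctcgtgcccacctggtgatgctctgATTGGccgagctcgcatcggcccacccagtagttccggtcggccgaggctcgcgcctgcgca
Msmo1: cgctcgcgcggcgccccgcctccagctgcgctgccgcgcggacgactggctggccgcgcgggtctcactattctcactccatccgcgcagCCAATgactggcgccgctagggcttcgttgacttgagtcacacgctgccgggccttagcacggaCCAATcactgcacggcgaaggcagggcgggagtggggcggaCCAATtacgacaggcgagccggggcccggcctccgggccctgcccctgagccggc
Sc5d: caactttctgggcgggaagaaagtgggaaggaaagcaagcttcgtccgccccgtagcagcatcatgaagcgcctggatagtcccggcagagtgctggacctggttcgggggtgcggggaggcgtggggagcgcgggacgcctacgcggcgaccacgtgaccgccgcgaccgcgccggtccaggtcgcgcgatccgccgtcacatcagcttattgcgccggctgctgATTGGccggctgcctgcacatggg
Cyp51: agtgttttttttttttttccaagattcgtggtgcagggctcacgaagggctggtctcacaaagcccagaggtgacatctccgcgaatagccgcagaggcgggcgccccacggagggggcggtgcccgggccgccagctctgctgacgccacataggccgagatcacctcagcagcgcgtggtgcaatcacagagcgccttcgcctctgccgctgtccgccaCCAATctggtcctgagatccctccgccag
Lbr: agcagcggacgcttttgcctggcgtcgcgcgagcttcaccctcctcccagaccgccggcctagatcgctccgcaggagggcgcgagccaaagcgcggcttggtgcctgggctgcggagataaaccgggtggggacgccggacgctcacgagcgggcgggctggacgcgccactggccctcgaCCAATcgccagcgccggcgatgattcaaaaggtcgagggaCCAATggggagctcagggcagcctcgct

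The stretch before Msmo1 held 3 such boxes, that before Lbr held 2, and the other 4 held 1 each. A promoter window from 250 bases before to 50 after the start was found for 23 of the 28 members and searched on both strands. No window was found for Sqle, Fdps, Fdft1, Stard4 and Npc1, so the shares do not cover them. A gene with several windows counted when any held the letters. CCAAT was present for 21 of these 23 members, against 44.14% of the 9324 tested genes with a promoter and 37.41% of all 32851 promoters. The Sp1 letters GGGCGG were also present for 21 of 23 members, against 71.02% of tested genes and 35.66% of all promoters. The letters TCACNCCAC, one form of the sterol regulatory element, were found for 1 member, Hmgcs1, and in 1.37% of tested genes. The E-box CACGTG was found for 5 members and in 12.32% of tested genes. A match describes the letters in this window and no binding was measured.

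The values are RPKM, reads per kilobase of transcript and per M (mega) mapped reads, so levels can be compared between genes. Differences were taken between values of log2(RPKM + 1), so that changes of genes with low values come out too small, and each is given with its standard error. A gene was said to rise or fall when limma's adjusted p was under 0.05 over all 11956 genes. Each group has n = 2, and a p-value therefore speaks to the spread among these samples alone. In bulk RNA, fewer cells of a type and less RNA per cell cannot be told apart.

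Steps among the low values gave rough estimates of depth between 23.25 and 63.8 M reads. The lowest were in the replicate 2 libraries of both ESC groups (24.05 and 23.25 M). Only 64.27% to 69.41% of these low values lay within 0.1 reads of a whole step. RNA of Cbx3 itself stood at 9.37 and 9.65 RPKM in the NPC controls and at 0.42 and 0.25 RPKM with its siRNA, and in ESCs it gave 13.99 and 56.42 RPKM in the control pair, then 1.01 and 1.96 RPKM under the siRNA. RNA of Med26 read 7.56 and 6.78 RPKM in the NPC controls, against 3.04 and 3.07 RPKM with its siRNA. Of 7 pluripotency markers 5 were lower in NPC control than in ESC control, among them Esrrb (log2 difference -3.79) and Zfp42 (-2.10). Pou5f1 (0.27), at 484 and 497 RPKM in NPC control, and Nanog (-0.24) did not pass. Of 4 tested neural progenitor markers, Nes (1.68) and Sox1 (0.58) were higher, Sox2 (-1.68) was lower and Pax6 did not pass. The summed level of the 6 listed was 95.3 to 144.0 RPKM in ESC control and 75.4 to 77.6 RPKM in NPC control. Fabp7 and Pou3f2, defining genes of later neural progenitors, stayed at or under 0.34 RPKM in every NPC library. Of the fibroblast genes listed as feeder markers, the summed level was 49.6 to 74.7 RPKM in ESC control and 5.84 to 7.55 RPKM in NPC control, where 2 of the 8 genes lay below 0.1 RPKM in both libraries. The 8 endoderm genes summed to at most 6.87 RPKM in any control library.

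The replicate 2 libraries of both ESC groups stood apart from the other 8, and one member shows it directly. Hmgcs1, the enzyme that makes HMG-CoA, was listed at 19.1 RPKM in ESC control replicate 2, at 15.0 RPKM in ESC Cbx3 siRNA replicate 2, and at 0 in the other 8 libraries. Its accessions stand in more than 1 row of the table. Of the 68 such accessions with at least 1 RPKM in both ESC replicate 2 libraries, 7 (10.294%) were at 0 in the other 8 libraries, against 26 of 16997 (0.153%) among accessions that stand in 1 row. The accessions of Hmgcs1, which prompted this count, were not left out of it. Whether reads were counted in another way in these libraries was not tested. Hmgcs1 was therefore not read, and 27 members remain for the comparisons. Values from ESCs are given for each replicate number.

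**Figure D1:**
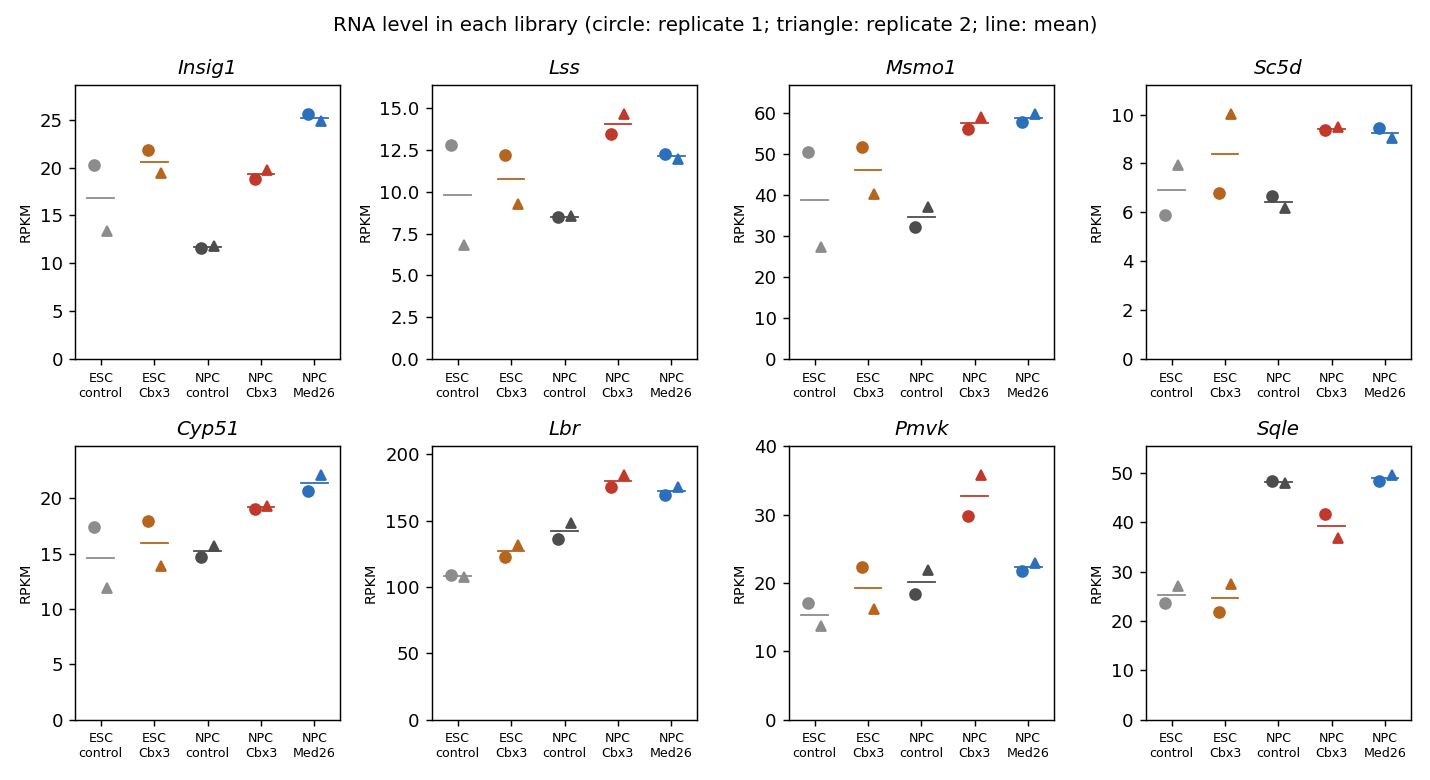
RPKM of 8 members in each of the 10 libraries, one panel per gene, with the groups along the horizontal axis and one point per library. The 2 NPC control libraries lie close together for Insig1 (11.6 and 11.8 RPKM), while the 2 ESC control libraries lie far apart (20.3 and 13.4 RPKM).

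In NPC control, the levels of the 27 members ran from 2.27 ± 0.10 RPKM (SD, n = 2) for Hsd17b7 to 141.9 ± 8.4 RPKM for Lbr. Lbr encodes a sterol reductase of the inner nuclear membrane that also tethers heterochromatin there. Next came Sqle, squalene epoxidase, at 48.3 ± 0.3 RPKM, Acat2, the thiolase of the first step, at 38.1 ± 1.7 RPKM, and Msmo1, the methylsterol monooxygenase, at 34.7 ± 3.4 RPKM. Stard4, a carrier of sterol in the cytosol, was second lowest at 3.19 ± 0.04 RPKM. Acat2, Fdps, Fdft1, Idi1 and Ggps1 share between 27.3% and 87.7% of their transcript with near-identical copies in other genes, so reads may have been split or shared there.

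After Cbx3 siRNA in NPCs, 8 members rose, 1 fell and 19, with Hmgcs1 among them, did not pass the test. Over all genes tested, 7.8% rose and 5.33% fell (13.1% in all). The median change of the 27 members was 0.19, against 0.01 for all genes tested, and 23 of the 27 changes were above 0. The risers were spread along the pathway, with 2 of 8 mevalonate enzymes, 1 of 3 squalene and lanosterol enzymes, 4 of 9 later sterol enzymes and 1 of 5 control genes, and none of the 3 sterol carriers passed.

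The change of largest size was that of Msmo1, which removes methyl groups from the sterol ring. It stood at 32.3 and 37.0 RPKM in the NPC controls and at 56.0 and 59.0 RPKM with Cbx3 siRNA. The groups did not overlap, and Msmo1 rose by 0.72 ± 0.08 (adjusted p = 0.00426, limma). Pmvk, the kinase that adds the second phosphate to mevalonate, gave 18.4 and 21.9 RPKM in the control pair, then 29.8 and 35.8 RPKM under the siRNA. Both treated libraries stood above both controls although each pair was spread, and Pmvk rose by 0.68 ± 0.11 (adjusted p = 0.0145). Insig1, the retention protein of the endoplasmic reticulum, read 11.6 and 11.8 RPKM in the controls, against 18.8 and 19.8 RPKM with the siRNA. The pairs were tight and far apart, with a ratio of means of 1.64 and a rise of 0.67 ± 0.06 (adjusted p = 0.00226).

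Lss, which closes the rings to form lanosterol, stood at 8.48 and 8.54 RPKM in the NPC controls and at 13.4 and 14.6 RPKM with Cbx3 siRNA, a rise of 0.66 ± 0.07 (adjusted p = 0.00389) and a ratio of means of 1.65. Sc5d, the sterol desaturase, gave 6.68 and 6.20 RPKM in the control pair, then 9.36 and 9.49 RPKM under the siRNA. For both genes the treated pair lay wholly above the control pair, and Sc5d rose by 0.49 ± 0.07 (adjusted p = 0.00994). Mvd, the decarboxylase that yields isopentenyl diphosphate, read 17.4 and 17.6 RPKM in the controls, against 22.1 and 25.3 RPKM with the siRNA. Mvd rose by 0.41 ± 0.07 (adjusted p = 0.0197), with the treated libraries further from each other than the controls.

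Lbr stood at 136.0 and 147.8 RPKM in the NPC controls and at 175.1 and 184.3 RPKM with Cbx3 siRNA, and it rose by 0.34 ± 0.06 (adjusted p = 0.0199). Cyp51, the sterol demethylase, gave 14.7 and 15.7 RPKM in the control pair, then 19.0 and 19.3 RPKM under the siRNA, and it rose by 0.32 ± 0.06 (adjusted p = 0.0259). These were the smallest of the 8 rises. Sqle went the other way. It read 48.5 and 48.1 RPKM in the controls, against 41.7 and 36.8 RPKM with Cbx3 siRNA, a fall of 0.30 ± 0.07 (log2 change -0.30, adjusted p = 0.0397), so 2 neighbouring steps of the pathway, Sqle and Lss, moved in opposite directions. Ebp, the sterol isomerase, stood at 8.42 and 7.74 RPKM in the controls and at 9.81 and 11.5 RPKM with the siRNA and did not pass (0.36 ± 0.10, adjusted p = 0.0695). The other 10 enzymes that did not pass lay between -0.27 for Tm7sf2 and 0.22 for Idi1.

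Of the control genes, the other 4 did not pass under Cbx3 siRNA. Srebf1 gave 12.9 and 11.6 RPKM in the control pair, then 15.0 and 14.2 RPKM under the siRNA (0.24 ± 0.09, adjusted p = 0.144). Srebf2 read 25.5 and 19.5 RPKM in the controls, against 27.8 and 23.7 RPKM with the siRNA (0.19 ± 0.14, adjusted p = 0.415). The 2 Srebf2 groups overlapped, and those of Srebf1 did not. Insig2, the second retention protein, stood at 5.00 and 5.37 RPKM in the controls and at 5.73 and 6.37 RPKM with the siRNA (0.19 ± 0.08, adjusted p = 0.191). Scap, the escort of SREBP, gave 13.6 and 11.4 RPKM in the control pair, then 14.8 and 13.1 RPKM under the siRNA (0.15 ± 0.10, adjusted p = 0.392), with overlap. The carriers Stard4, Npc1 and Npc2 lay within 0.06 of 0 on the log2 scale.

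Regardless of the test, 18 of the 27 members had both Cbx3 siRNA libraries above both NPC controls and 2 had both below, against 30.1% and 26.5% of all genes tested. With all 10 libraries in 1 unweighted fit, where the median residual SD was 0.156 against 0.083, no member passed, while in a fit of all 10 with weights by cell type 8 rose and 1 fell. Over all alternatives the adjusted p of Insig1 ran from 0.000843 to 0.193. Insig1, Lss and Msmo1 passed in each of the 6 fits that left out 1 NPC library, and the number of members that rose was 4 without control replicate 1, 5 without control replicate 2, 5 without Cbx3 siRNA replicate 1 and 3 without Cbx3 siRNA replicate 2. Sqle passed in 1 of these 6 fits, that without Cbx3 siRNA replicate 1. Other genes moved with the same treatment. Of 6 epithelial markers 4 rose, their summed level going from 514 to 529 RPKM in control to 807 to 836 RPKM, and of 4 tested neural progenitor markers 3 fell, the list of 6 going from 75.4 to 77.6 RPKM to 55.8 to 58.8 RPKM. Of 7 pluripotency markers 2 fell (Pou5f1 and Nanog), and of 6 tested feeder markers 2 rose and 1 fell. The part of these cells or states in the values of the pathway was not tested.

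After Med26 siRNA in NPCs, 9 members rose, none fell and 19, with Hmgcs1 among them, did not pass. Over all genes tested, 6.9% rose and 6.46% fell (13.4% in all). The median change of the 27 members was 0.21, against -0.001 for all genes, and 22 of the 27 changes were above 0. The rises included 6 of the 9 later sterol enzymes, 1 of 8 mevalonate enzymes, 1 of 3 squalene and lanosterol enzymes and 1 of 5 control genes. This comparison uses the same 2 control libraries as that of the Cbx3 siRNA, so the 2 sets of values are given side by side and are not independent.

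Insig1 was 25.6 and 24.9 RPKM after Med26 siRNA against 11.6 and 11.8 RPKM in control, a ratio of means of 2.15. It rose by 1.04 ± 0.06 (adjusted p = 0.00104, limma), and its treated libraries lay above every other library in the series. Msmo1 was 57.6 and 59.6 RPKM after Med26 siRNA and rose by 0.74 ± 0.08 (adjusted p = 0.00469). Hsd17b7, the ketoreductase that acts beside Msmo1 and Nsdhl in removing methyl groups, read 2.34 and 2.21 RPKM in the controls, against 3.65 and 3.90 RPKM with Med26 siRNA. Hsd17b7 rose by 0.54 ± 0.10 (adjusted p = 0.0206) from a low level. Nsdhl, the dehydrogenase of the same complex of steps, stood at 5.71 and 5.13 RPKM in the controls and at 8.58 and 7.77 RPKM with the siRNA, a rise of 0.52 ± 0.09 (adjusted p = 0.018).

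Cyp51 was 20.7 and 22.1 RPKM after Med26 siRNA against 14.7 and 15.7 RPKM in control, and it rose by 0.47 ± 0.06 (adjusted p = 0.00998). Lss was 12.3 and 11.97 RPKM after the siRNA and rose by 0.46 ± 0.07 (adjusted p = 0.0118). Sc5d was 9.46 and 9.03 RPKM after the siRNA and rose by 0.46 ± 0.07 (adjusted p = 0.0133). In all 3 genes the treated pair stood clear of the control pair. Idi1, the isomerase that makes dimethylallyl diphosphate, gave 5.51 and 5.74 RPKM in the control pair, then 7.23 and 7.24 RPKM under the siRNA, a rise of 0.31 ± 0.07 (adjusted p = 0.0395). Lbr was 169.5 and 175.1 RPKM after Med26 siRNA and rose by 0.28 ± 0.06 (adjusted p = 0.0352). Idi1 and Lbr had the smallest changes of the 9.

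Among the members that did not pass after Med26 siRNA, Sqle was 48.4 and 49.6 RPKM, within 0.02 of control on the log2 scale. Pmvk was 21.8 and 22.9 RPKM (0.15 ± 0.11, adjusted p = 0.413) and Mvd was 19.8 and 20.3 RPKM (0.18 ± 0.07, adjusted p = 0.151). The Pmvk groups overlapped at their edges and the Mvd groups did not. Srebf1 was 14.8 and 12.8 RPKM after Med26 siRNA (0.16 ± 0.09, adjusted p = 0.291) and Srebf2 was 29.3 and 25.4 RPKM (0.28 ± 0.14, adjusted p = 0.237). Insig2 was 5.21 and 4.91 RPKM (-0.03 ± 0.08, adjusted p = 0.852) and Scap was 11.3 and 10.7 RPKM (-0.16 ± 0.10, adjusted p = 0.326). Of the control genes, Scap alone had both treated libraries below both controls, and Insig1 alone had both above. The other 11 members lay between -0.14 for Npc1 and 0.28 for Tm7sf2.

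Both Med26 siRNA libraries lay above both controls for 17 members and below them for 3, against 29.1% and 29.8% of all genes tested. No member passed in the unweighted fit of all 10 libraries, and 8 rose in the fit of all 10 with weights by cell type. Over all alternatives the adjusted p of Insig1 ran from 0.00035 to 0.0859. The count of risers was 2 without control replicate 1, 3 without control replicate 2 and 2 without either Med26 siRNA library, with Insig1 and Msmo1 passing in all 6 fits that left out 1 NPC library, and it was 7 without either Cbx3 siRNA library, while Idi1 and Lbr passed in 0 of the 6. Of 6 epithelial markers 5 rose here, with a sum of 715 to 739 RPKM, and of 4 tested neural progenitor markers 1 rose, the list of 6 reaching 91.4 to 94.1 RPKM. Of 7 pluripotency markers 3 rose (Esrrb, Klf4 and Tfcp2l1) and 1 fell (Nanog), and none of 6 tested feeder markers passed. Their part in the values of the pathway was not tested.

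**Figure D2:**
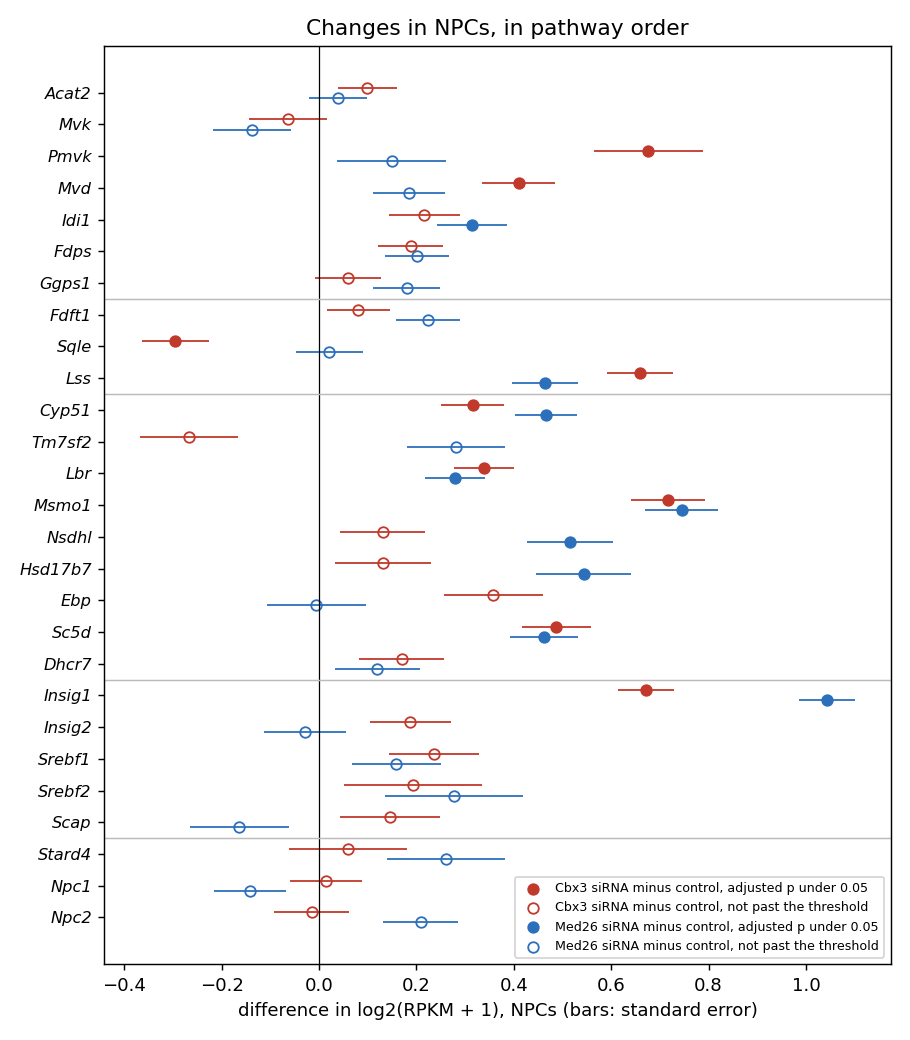
Difference in log2(RPKM + 1) from NPC control for 27 members in pathway order, after Cbx3 siRNA and after Med26 siRNA, with bars for 1 standard error and filled points for adjusted p under 0.05. Both comparisons use the same 2 control libraries. Insig1 reaches 0.67 after Cbx3 siRNA and 1.04 after Med26 siRNA, and Sqle is the one filled point below 0, at -0.30 after Cbx3 siRNA.

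The 2 knockdowns were then compared with each other directly, which uses no control library for the difference. Between them 1 member was higher after Cbx3 siRNA and 5 were lower, while 10.4% of all genes tested were higher and 7.87% lower (18.3% in all). The median difference of the 27 members was -0.01, against 0.01 for all genes. Pmvk was higher after Cbx3 siRNA by 0.53 ± 0.11 (adjusted p = 0.0248, limma), with 29.8 and 35.8 RPKM against 21.8 and 22.9 RPKM. Insig1 was lower by 0.37 ± 0.06 (log2 difference -0.37, adjusted p = 0.00982) and Sqle by 0.32 ± 0.07 (log2 difference -0.32, adjusted p = 0.0267).

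The other 3 members that differed are enzymes between lanosterol and cholesterol. Tm7sf2, a sterol reductase of the endoplasmic reticulum that shares its reaction with Lbr, read 4.60 and 4.77 RPKM in the controls, 3.33 and 4.15 RPKM after Cbx3 siRNA and 5.82 and 5.99 RPKM after Med26 siRNA. It did not pass against control with either siRNA but differed between the knockdowns (log2 difference -0.55 ± 0.10, adjusted p = 0.016), the control pair lying between the treated pairs. Hsd17b7 was 2.87 and 2.32 RPKM after Cbx3 siRNA and lower there than after Med26 siRNA (log2 difference -0.41 ± 0.10, adjusted p = 0.0339). Nsdhl was 6.26 and 5.79 RPKM after Cbx3 siRNA and likewise lower (log2 difference -0.39 ± 0.09, adjusted p = 0.0307). For Hsd17b7 and Nsdhl the Cbx3 siRNA pair overlapped or adjoined control, and the Med26 siRNA pair stood above all 4 other NPC libraries.

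No difference between the knockdowns passed for Msmo1 (log2 difference -0.03, 95% interval -0.21 to 0.15), Sc5d (0.03, interval -0.14 to 0.20), Lbr (0.06, interval -0.09 to 0.21), Cyp51 (-0.15, interval -0.30 to 0.00) or Lss (0.19, interval 0.03 to 0.36, adjusted p = 0.0964). The intervals are not adjusted for the number of genes, and they leave room for smaller differences. Of these intervals, only that of Lss reached the size of the smallest called difference, that of Sqle (-0.32). The number of members lower after Cbx3 siRNA was 3 without either control library, 2 without either Cbx3 siRNA library and 0 without either Med26 siRNA library. Pmvk was not called without Cbx3 siRNA replicate 2 or without either Med26 siRNA library, and no member was called in the unweighted fit of all 10 libraries, while the weighted one called 1 higher and 5 lower. Regardless of the test, 8 members had both Cbx3 siRNA libraries above both Med26 siRNA libraries and 10 had both below, against 32.9% and 28.8% of all genes tested.

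**Figure D3:**
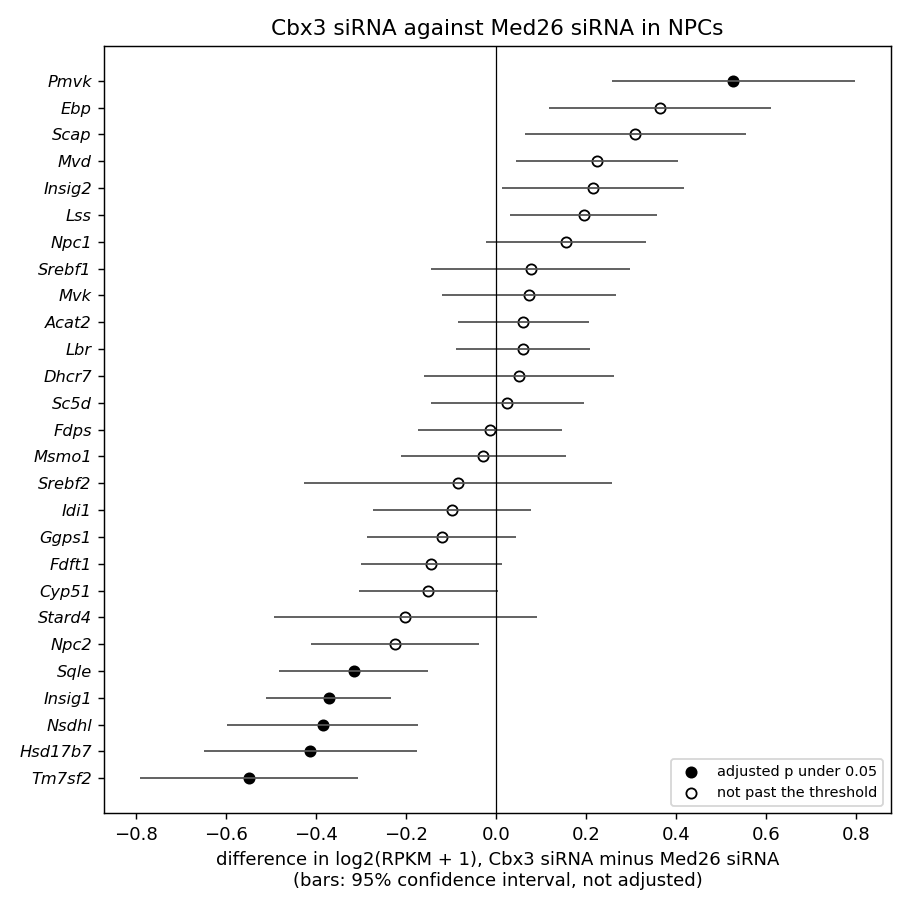
Difference in log2(RPKM + 1) between Cbx3 siRNA and Med26 siRNA in NPCs for 27 members, sorted by size, with 95% confidence intervals and filled points for adjusted p under 0.05. Pmvk stands at 0.53 at the top, and Tm7sf2 at -0.55 at the bottom.

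In ESCs no member passed after Cbx3 siRNA, nor did any other gene in limma's fit (0.0% of 11956). An unadjusted p under 0.05 was found for 645 genes. The siRNA target Cbx3 did not pass either (log2 change -3.59 ± 0.53, adjusted p = 0.291), so this fit can miss large changes. The median change of the 27 members was 0.13, against -0.03 for all genes. Lbr had the lowest adjusted p of the members. It read 109.0 and 107.3 RPKM in the ESC controls, against 122.8 and 131.3 RPKM with Cbx3 siRNA (0.23 ± 0.10, adjusted p = 0.91), without overlap. Insig2 also had both treated libraries above both controls, with 4.92 and 5.24 RPKM against 5.63 and 6.23 RPKM, which makes 2 of 27 members against 7.86% of all genes. Ggps1 and Srebf2 had both below (2 of 27, against 13.1%), and Srebf2 stood at 18.6 and 18.5 RPKM in the controls and at 14.9 and 17.1 RPKM with the siRNA.

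The spread in ESCs ran mostly between replicate numbers. In replicate 1, Insig1 read 20.3 RPKM without and 21.8 RPKM with Cbx3 siRNA, and in replicate 2 it read 13.4 and 19.4 RPKM. Msmo1 was 50.4 and 51.6 RPKM in replicate 1 and 27.3 and 40.3 RPKM in replicate 2. Lss was 12.8 and 12.2 RPKM in replicate 1 and 6.82 and 9.31 RPKM in replicate 2. In each of these genes the replicate 2 control was the lowest of the 4 ESC libraries.

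Other members with calls in NPCs were also spread between the replicate numbers in ESCs. For replicates 1 and 2, Mvd read 23.2 and 12.5 RPKM in the ESC controls, against 24.1 and 16.2 RPKM with Cbx3 siRNA. Cyp51 read 17.4 and 11.9 RPKM against 18.0 and 13.9 RPKM, and Pmvk 17.1 and 13.7 RPKM against 22.3 and 16.2 RPKM. Replicate 2 was the lower library of each pair in these 3 genes. Sc5d, at 5.88 and 7.94 RPKM against 6.79 and 10.01 RPKM, had the higher value in replicate 2. Idi1, at 7.51 and 13.2 RPKM against 8.45 and 14.97 RPKM, and Sqle, at 23.6 and 27.04 RPKM against 21.9 and 27.5 RPKM, did so too. The low genes were Nsdhl (5.74 and 4.15 RPKM against 5.96 and 5.38 RPKM), Hsd17b7 (1.73 and 2.22 RPKM against 1.95 and 3.42 RPKM) and Tm7sf2 (3.80 and 2.53 RPKM against 4.37 and 2.07 RPKM), and their groups overlapped.

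Within replicate 1 the median of the 27 differences was 0.04, against -0.06 for all genes, and within replicate 2 it was 0.19, against 0.01. Higher values after Cbx3 siRNA within both numbers were found for 16 of the 27 members, against 24.5% of all genes, and lower values within both for 3, against 36.4%. The labels do not say that a number marks a shared culture. Srebf1 gave 8.80 and 7.22 RPKM in the control pair, then 9.65 and 8.72 RPKM under the siRNA, and Scap was 10.1 and 10.4 RPKM against 8.92 and 11.5 RPKM.

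**Figure D4:**
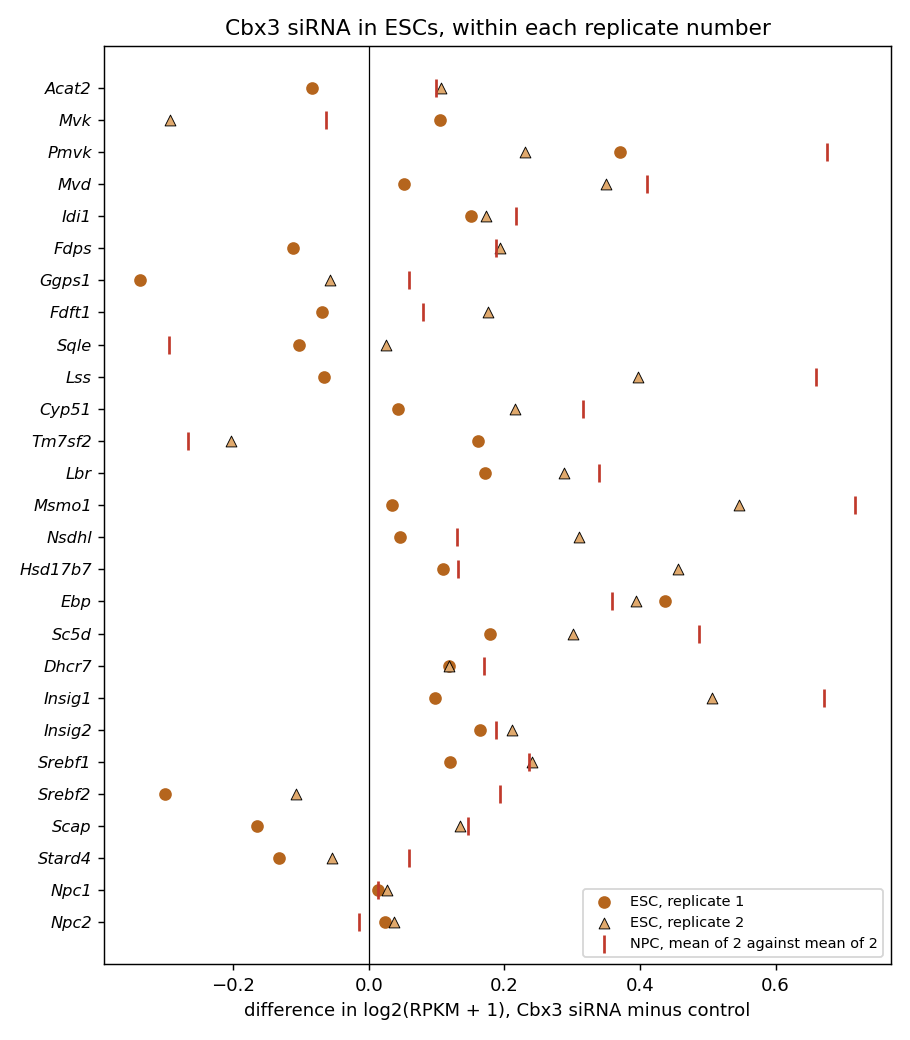
Difference in log2(RPKM + 1) between Cbx3 siRNA and control in ESCs for 27 members, taken within replicate number 1 (circles) and number 2 (triangles), with the NPC difference of means as a bar. The triangles of Msmo1 and Insig1 lie at 0.55 and 0.51, and their circles at 0.03 and 0.10.

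The Cbx3 siRNA effect in NPCs minus that in ESCs was tested in the fit of all 10 libraries. No member and no other gene passed (0.0% of 11956), and 233 genes had an unadjusted p under 0.05. The median difference of the 27 members was 0.09, against 0.03 for all genes. The largest was that of Lss, at 0.49 ± 0.35 (adjusted p = 1.0), with a 95% interval from -0.31 to 1.30. When both ESC libraries of number 2 were left out, an alternative added after the data were seen, the Lss difference was 0.73 and passed (adjusted p = 0.0468). That fit rests on 1 library per ESC group, which is assumed to vary as the NPC libraries do.

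Between NPC control and ESC control, 3 members were higher in NPCs and none lower, while 10.1% of all genes tested were higher and 5.94% lower (16% in all). The median difference was 0.07 for the 27 members and 0.03 for all genes. Sqle was 23.6 and 27.04 RPKM in ESC control and 48.5 and 48.1 RPKM in NPC control, a difference of 0.91 ± 0.13 (adjusted p = 0.0061, limma). Srebf1 was 8.80 and 7.22 RPKM in ESC control and 12.9 and 11.6 RPKM in NPC control, a difference of 0.56 ± 0.13 (adjusted p = 0.0251). Lbr was 109.0 and 107.3 RPKM in ESC control and 136.0 and 147.8 RPKM in NPC control, a difference of 0.39 ± 0.10 (adjusted p = 0.0353). All 3 had the NPC pair wholly above the ESC pair, as did 9 members in all (34.5% of all genes), and 6 had it below (24.6%).

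Several other members were higher in NPC control than in one ESC control library and lower than in the other. Against ESC control replicates 1 and 2 the difference was -0.54 and 0.28 for Lss, -0.53 and 0.33 for Msmo1, and -0.39 and 0.46 for Mvd. Idi1 and Fdps, which makes farnesyl diphosphate, were lower than in both, by different amounts (-0.36 and -1.10 for Idi1, -0.43 and -0.81 for Fdps). Without both ESC libraries of number 2, 4 members were higher and 9 lower in NPCs, among the latter Insig1 (-0.74, adjusted p = 0.000431), and without both of number 1, 12 were higher and 5 lower, with Hmgcs1 counted in the 5. Sqle, Srebf1 and Lbr passed in both of these fits, which were added after the data were seen. In the fit of the 4 control libraries none passed, and Sqle had an adjusted p of 0.0676. No member was called higher without either NPC control library, and of the 10 fits that left out 1 library Lbr passed in 2. Sqle alone was higher without ESC control replicate 2 (with 3 members lower) or without either NPC Cbx3 siRNA library. The summed feeder markers given above and the ESC markers, at 824 to 1285 RPKM in ESC control and 674 to 685 RPKM in NPC control, also differed between these groups, and their part in the values was not tested.

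A further 56 genes next to the pathway were read in 5 lists, of which 53 were tested and 3 (Gramd1c, Nr1h3 and Abca1) were too low. After Cbx3 siRNA in NPCs 9 of the 53 rose and 4 fell, with a median change of 0.05, while 7.8% and 5.33% of all genes tested did. With 1 library left out at a time these counts were 2 to 4 and 1 to 2. After Med26 siRNA 4 rose and 6 fell, with a median of 0.04, beside 6.9% and 6.46% of all genes, and with 1 library left out the counts were 1 to 3 and 1 to 6. The medians of all genes tested were 0.01 and -0.001. The 2 comparisons again share their controls.

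Genes of fatty acid synthesis, many of which are SREBP targets too, rose after Cbx3 siRNA in 4 of 13 cases and fell in none, beside 7.8% and 5.33% of all genes. Elovl6, which lengthens palmitate, read 10.2 and 11.05 RPKM in the NPC controls, against 17.9 and 17.6 RPKM with Cbx3 siRNA, a rise of 0.69 ± 0.07 (adjusted p = 0.00362, limma). Scd1, the stearoyl-CoA desaturase, stood at 4.62 and 4.16 RPKM in the controls and at 8.07 and 6.76 RPKM with the siRNA, a rise of 0.64 ± 0.12 (adjusted p = 0.0197). Slc25a1, the citrate carrier, and Elovl5 rose by 0.28 and 0.26. After Med26 siRNA none of the 13 rose, and Acss2, an acetyl-CoA synthetase, fell from 2.92 and 3.03 RPKM to 1.66 and 2.10 RPKM (log2 change -0.47 ± 0.10, adjusted p = 0.0272). Between the knockdowns Elovl6 was higher after Cbx3 siRNA by 0.50 ± 0.07 (adjusted p = 0.0074).

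Of 10 tested genes of SREBP processing and sterol sensing, 1 rose and 1 fell after Cbx3 siRNA in NPCs, beside 7.8% and 5.33% of all genes. None passed after Med26 siRNA, beside 13.4% of all genes. Erlin1 and Erlin2 encode a pair of proteins of the endoplasmic reticulum that take part in the sterol-driven decay of membrane proteins, and they moved in opposite directions. Erlin2 gave 17.7 and 18.6 RPKM in the control pair, then 6.97 and 6.51 RPKM under Cbx3 siRNA (log2 change -1.30 ± 0.07, adjusted p = 0.000634). Erlin1 read 2.63 and 2.89 RPKM in the controls, against 5.48 and 5.71 RPKM with the siRNA (0.81 ± 0.08, adjusted p = 0.00382). In ESCs Erlin2 stood at 11.8 and 15.4 RPKM in the controls and at 6.66 and 7.06 RPKM with Cbx3 siRNA, without overlap, and no gene of these lists passed there.

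The other branches that use isoprenoids gave 1 fall among 13 after Cbx3 siRNA (Fnta, -0.30, adjusted p = 0.0364) and 4 falls after Med26 siRNA. Of all genes, 5.33% and 6.46% fell. No gene of this list rose in either, beside 7.8% and 6.9% of all genes. Rce1, a protease that trims prenylated proteins, gave 19.9 and 17.7 RPKM in the NPC control pair, then 7.77 and 7.45 RPKM under Med26 siRNA (log2 change -1.20 ± 0.09, adjusted p = 0.00224). After Cbx3 siRNA Rce1 was 24.9 and 21.6 RPKM and did not pass. Coq2, Rabggtb and Fnta fell after Med26 siRNA by 0.43, 0.43 and 0.40.

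Of 6 tested genes of LXR action, efflux and storage, 2 rose after each siRNA, beside 7.8% (Cbx3) and 6.9% (Med26) of all genes. Mylip, a ligase that sends lipoprotein receptors to the lysosome, was at or under 1.24 RPKM in every NPC library and rose by 0.58 after Cbx3 siRNA (adjusted p = 0.017) and by 0.53 after Med26 siRNA (adjusted p = 0.0243). Nceh1, a cholesteryl ester hydrolase, read 3.96 and 4.14 RPKM in the controls, 5.73 and 5.30 RPKM after Cbx3 siRNA and 5.60 and 5.33 RPKM after Med26 siRNA. Both treated pairs of Nceh1 stood above control, and it rose by 0.37 and 0.36 (adjusted p = 0.0298 and 0.0333).

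Of 11 genes of uptake and the lysosome, 2 rose and 2 fell after Cbx3 siRNA, beside 7.8% and 5.33% of all genes. After Med26 siRNA 2 rose and 1 fell, beside 6.9% and 6.46%. Vldlr, a lipoprotein receptor, read 2.06 and 1.86 RPKM in the NPC controls, against 1.02 and 1.07 RPKM with Cbx3 siRNA (log2 change -0.53 ± 0.07, adjusted p = 0.00901). Lamp2, a lysosomal membrane protein, stood at 5.91 and 5.92 RPKM in the controls and at 12.5 and 11.95 RPKM with Med26 siRNA, a rise of 0.94 ± 0.08 (adjusted p = 0.00333). After Cbx3 siRNA Lamp2 was 5.36 and 4.62 RPKM, and the difference between the knockdowns was -1.15 ± 0.08 (adjusted p = 0.0013). Osbp, a sterol carrier between membranes, rose by 0.32 after Cbx3 siRNA (adjusted p = 0.0243) and by 0.37 after Med26 siRNA (adjusted p = 0.0183).

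**Figure D5:**
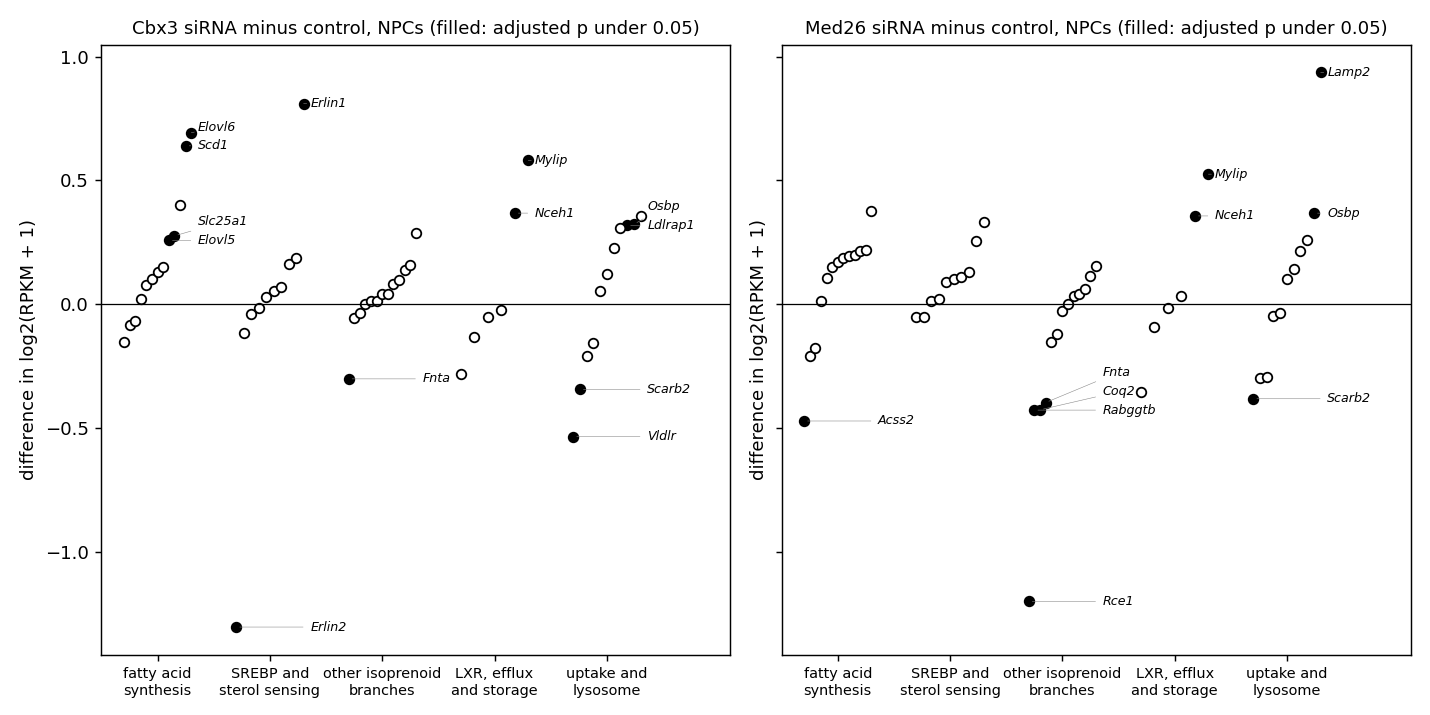
Difference in log2(RPKM + 1) from NPC control for the 53 tested genes of the 5 neighbouring lists, after Cbx3 siRNA (left) and after Med26 siRNA (right), 1 point per gene and filled where adjusted p was under 0.05. Erlin2 at -1.30 on the left and Rce1 at -1.20 on the right lie lowest, and Lamp2 at 0.94 on the right lies highest.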

How the data were processed

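Per the labels' protocols, Trizol was used for extraction and a TruSeq RNA kit for the libraries. The authors deposited 1 table of RPKM values per RefSeq accession for all 10 libraries. The submitters' processing notes name TopHat2 2.08 and the build mm9. The tool, annotation, strand setting and handling of multiple matches behind the counting were not given in the sources used here, and overlapping genes and near-identical copies can share reads.

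The table has 35860 rows, and 99.07% were given a symbol through RefSeq names (GRCm38.p6), with the remaining 334 kept under their accession. The row with the highest mean RPKM stood for a gene. A gene was tested when 2 or more libraries held 1 RPKM or more. The log2(RPKM + 1) values were fitted with limma 3.58.1 in R 4.3.3 (intensity trend, two-sided, Benjamini-Hochberg at 0.05). The 6 NPC libraries were fitted alone for comparisons within NPCs, and all 10 libraries for those with ESCs. Residual degrees of freedom were 3 and 5. The method was also run on simulated data with independent noise in each library and no shared effect of replicate number. That run cannot show how such a shared effect would bear on the calls.

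No count test was run on the RPKM values. Only 64.27% to 69.41% of low values lay within 0.1 reads of a whole step, too few to recover reads. Copies were sought among transcripts with blastn 2.17.0 (at least 95% identity over at least 100 bases). The promoter sequences are not on the build of the deposited table and were used apart from it.

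All 28 members are accounted for, with values by library for those that passed and for the 5 control genes, and up to 4 called genes named per neighbouring list. The members and lists were chosen with earlier results of these data known, and 1 gene of the neighbouring lists is not reported here. Alternatives changed the pseudocount, filter, scaling, row choice, weights, libraries and replicate block.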

Additional observations from a re-analysis of the deposited data

Results flagged for a closer look

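Ggps1, the geranylgeranyl diphosphate synthase, was the one member whose Cbx3 siRNA libraries left control in opposite directions in the 2 cell types. In ESCs the controls read 9.74 and 9.57 RPKM against 7.50 and 9.16 RPKM with Cbx3 siRNA, and in NPCs the controls read 7.90 and 7.60 RPKM against 7.93 and 8.32 RPKM. The NPC effect minus the ESC effect was 0.26 on the log2 scale (standard error 0.15) and did not pass in limma's fit (adjusted p = 1.0). Near-identical copies in 2 other genes cover 27.3% of its transcript, and their part in the values was not tested.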

How the results depend on the processing

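Among the 27 calls of members in the 3 NPC comparisons and in that of NPC against ESC control, a pseudocount of 0.1, quantile normalization, a mean over accessions and a replicate block kept all 27, median-centring kept 26, array weights by cell type in a fit of all 10 libraries 24 and no filter on low values 13, and no call changed sign. In the unweighted fit of all 10 libraries the NPC counts of members called were 0. Without the filter, members called after Cbx3 siRNA in NPCs were 4 higher and 0 lower, after Med26 siRNA 5 higher, and between the knockdowns 0 higher and 1 lower. With 1 library left out at a time these ranged from 3 to 8 higher and 0 to 1 lower for Cbx3, from 2 to 7 higher for Med26, and from 0 to 1 higher and 0 to 3 lower between them. NPC against ESC control ranged from 0 to 4 higher and 0 to 3 lower when 1 library was left out, with 1 higher under array weights and 0 higher with the 4 control libraries. Leaving out both ESC libraries of number 1 gave 12 higher and 5 lower there, and leaving out number 2 gave 9 lower and, for the NPC effect minus the ESC effect, 1 higher. Some of these fits held fewer libraries, and that without the filter held a wider set of genes. The causes of the changed counts were not tested.

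The labels number the replicates and pair nothing. Deviations of same-numbered libraries correlated at 0.892 in ESCs and at 0.423 to 0.461 in NPCs, with only 2 numbers a group. With a replicate block, 14 members were called higher after Med26 siRNA, and 5 were called higher after Cbx3 siRNA than after Med26 siRNA. In ESCs the block called 3 members higher after Cbx3 siRNA (Pmvk, Lbr and Ebp, among 273 genes higher and 540 lower). For NPC against ESC control it gave 7 members higher and 9 lower. The block had a separate replicate 2 term in each cell type, so this last contrast compares levels at replicate 1 and is not an average over replicates. Lss, Msmo1 and Mvd, lower in NPCs there, were higher in NPC control than in ESC control replicate 2. A block with the 4 ESC libraries alone called 26 genes higher and 29 lower, and 0 members. Over all genes, those called after Cbx3 siRNA in NPCs went from 933 higher and 637 lower to 570 and 306 without the filter, 1907 and 1588 with the block and 1 and 0 with all 10 libraries. After Med26 siRNA they went from 825 and 772 to 336 and 275, 1810 and 1895, and 3 and 12, and between the knockdowns from 1244 and 941 to 779 and 546, 2357 and 1877, and 80 and 40. Neighbouring genes called after Cbx3 siRNA in NPCs (9 higher and 4 lower) were 5 and 2 without the filter, 15 higher with the block and 0 with all 10 libraries unweighted, and after Med26 siRNA the block gave 15 higher and 10 lower. The values give no counts, so counting error could not be separated from the spread between libraries.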
